A study of Mus musculus with 21 samples.

Results

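The genes of the molecular chaperone system were compared between cortex of mice exposed to high-frequency head impact (HF-HI) and cortex of sham mice, 24 h after the last impact. Members were chosen by gene symbol: the heat shock proteins (Hsp), the J-domain proteins (Dnaj), the subunits of the CCT chaperonin (Cct2 to Cct8 and Tcp1), the Bag co-chaperones, Stip1 and St13, the lectin chaperones Calr and Canx, the protein disulfide isomerases (Pdia) and the prefoldins (Pfdn). Of 121 symbols of the mouse annotation that this rule takes, 58 were among the 5544 genes of the expression table, and the others were not analysed here. By the place where the protein works, 36 of the 58 were cytosolic, 17 belonged to the endoplasmic reticulum (ER) and 5 to mitochondria. No member of the small heat shock protein family and neither of the classical inducible HSP70 genes, Hspa1a and Hspa1b, was among the 58.

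Chaperones bind unfolded or partly folded proteins and let them reach their folded state. In the cytosol, a J-domain protein hands a client to HSP70 and sets off its ATPase, a nucleotide exchange factor releases it again, and Stip1 (also called Hop) passes some clients on to HSP90, while the ring-shaped CCT chaperonin folds actin and tubulin brought to it by prefoldin. In neurons the constitutive HSP70, Hspa8, also strips clathrin from synaptic vesicles together with the J-domain protein auxilin (Dnajc6). The ER has its own HSP70 (Hspa5, or BiP), its own HSP90 (Hsp90b1, or GRP94) and a lectin cycle of calnexin, calreticulin and the disulfide isomerase Pdia3, and mitochondria have an HSP70 (Hspa9) and the HSP60/HSP10 chaperonin (Hspd1 and Hspe1).

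The libraries came from cortex of male mice aged 12 weeks, C57BL/6 in the labels and C57Bl/6J in the study's methods, 10 labelled sham and 11 labelled HF-HI, each a separate numbered sample. HF-HI mice were hit repeatedly on the closed head on successive days under isoflurane, while sham mice were anesthetized and handled but never hit, so exposure to isoflurane was common to both groups. The values are variance-stabilized log2 expression per gene, and all levels and differences here are on that log2 scale, on which a difference of 1 is a doubling for well-expressed genes and understates the change of low ones. "Higher" and "lower" refer to HF-HI against sham and, unless a value is given without a call, to an adjusted p under 0.05 in limma over all 5544 genes. The tissue was bulk cortex, so fewer cells of a type and less RNA per cell cannot be told apart.

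The files hold no read counts. The spacing of the values gave relative depths of 0.580 to 1.26 in sham (median 0.864) and 0.548 to 1.63 in HF-HI (median 1.17). The dependence of a library's values on exonic GC content also moved with the group: its slope per 10% GC was -0.106 ± 0.0775 (SD) over the sham libraries and 0.096 ± 0.0602 over the HF-HI libraries. The gene-by-gene fit was therefore also made with that trend removed, and the text says so where this ends the call of a chaperone gene; for the other gene lists the counts from that fit are given. Markers of neurons moved with the group as well, with 8 of 12 listed genes higher and 1 lower. For these and the other marker counts, the shares over all genes were 32.6% higher and 33.6% lower. The mean of the 12 neuron markers ran from 12.15 to 12.32 in sham and from 12.52 to 12.61 in HF-HI. Of 6 markers of cortical excitatory neurons 5 were higher, with list means of 9.73 to 10.06 and 10.31 to 10.59. Slc17a7 is in both lists, so they are not separate. With the GC trend removed, 8 of the 12 neuron markers and 5 of the 6 excitatory markers were higher and none was lower. The shares over all genes were then 26.7% higher and 34.5% lower. The inhibitory neuron genes Gad1 and Gad2 differed by -0.097 and -0.010 and were not called. Of 9 astrocyte markers 4 were higher and 2 lower, of 10 oligodendrocyte markers 3 were higher and none was lower (3 and 4, and 2 and 2, with the GC trend removed), and only 2 of 10 listed microglial, 3 of 10 endothelial and 2 of 5 red blood cell markers were in the table. The part of GC content, depth and cell makeup in the results below was not tested beyond the fits named.

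Of the 58 chaperone genes, 12 were higher in HF-HI, 26 were lower and 20 were not called. The backgrounds over all 5544 genes were 32.6% higher and 33.6% lower, against 20.7% and 44.8% of the members, and the median difference was -0.068 for the members and -0.0086 for all genes. The members spanned -0.30 to 0.81. All 4 members that moved by 0.5 or more were higher, and the lower members lay between -0.30 and -0.088. Over all genes the sizes were lopsided too, with 322 genes up and 20 down by 0.5 or more. The neuron marker mean was higher in all HF-HI than in all sham libraries, and its relation to the chaperone genes was not tested. In 6 chaperone genes every HF-HI library stood above every sham library and in 6 every HF-HI library stood below, where 8.71% and 4.76% of all genes did so. With the GC trend removed, 13 members were higher and 25 lower (backgrounds 26.7% and 34.5%), with 9 of the 12 and 22 of the 26 keeping their call. With each library centred on its own median, 10 members were higher and 31 lower, and over all genes the split moved from 1810 higher and 1864 lower to 1448 higher and 2376 lower. Spearman's correlation of the difference with exonic GC content was 0.24 across the 58 members and 0.48 across the 5539 genes with a GC content, given as a description since genes of the same libraries are not independent.

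**Figure D1:**
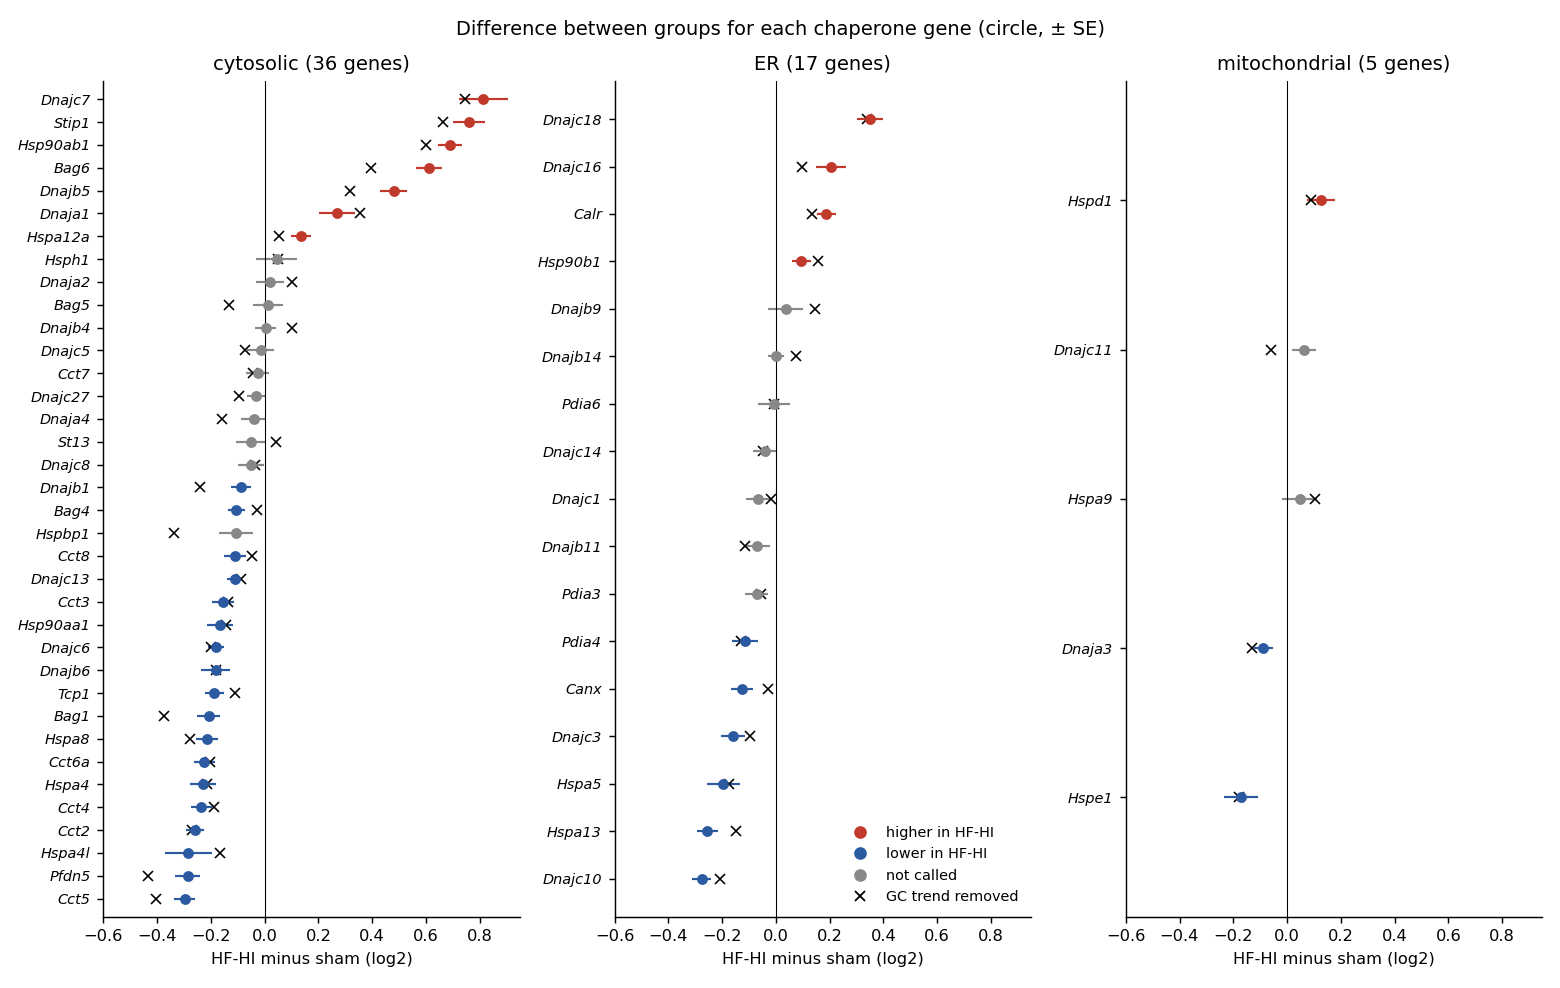
Difference between HF-HI (n = 11) and sham (n = 10) for each of the 58 chaperone genes, in log2 units on the horizontal axis, by cellular compartment. Circles with bars are limma estimates ± SE, coloured by call, and crosses are the estimates with the GC trend removed. The cytosolic panel holds both the highest values (Dnajc7, Stip1, Hsp90ab1, Bag6) and most of the lower genes, and ER and mitochondrial genes lie within 0.35 of 0.

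Of the 36 cytosolic members 7 were higher (19.4%) and 18 lower (50%), against 32.6% and 33.6% of all genes. A further 11 were not called, and the median difference was -0.097. The mean of all 36 per library nevertheless had nearly the same range in both groups, 10.43 to 10.60 in sham and 10.43 to 10.58 in HF-HI. The largest rises (Dnajc7, Stip1, Hsp90ab1, Bag6 and Dnajb5, 0.48 to 0.81) exceeded every fall, of which the largest was -0.30. The smallest called rise, that of Hspa12a, was 0.14. The families within the cytosolic class did not move alike.

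The cytosolic HSP90 genes moved in opposite directions. HSP90 matures kinases, steroid receptors and other regulatory proteins, and its alpha form (Hsp90aa1, chr12:110690605-110702728, minus strand, GRCm38) is the more stress-inducible, its beta form (Hsp90ab1, chr17:45567775-45573271, minus strand, GRCm38) the more constitutive. Hsp90ab1 lay at 12.63, 12.85 and 13.01 (lowest, median and highest) in sham and at 13.40, 13.49 and 13.66 in HF-HI. The ranges did not overlap, and the beta gene was higher by 0.69 ± 0.045 (SE), a 1.61-fold difference (limma adjusted p = 8.9e-11). Hsp90aa1 lay at 13.64, 13.78 and 14.01 in sham and at 13.43, 13.64 and 13.82 in HF-HI. The ranges overlapped, with 7 of 11 HF-HI libraries under the lowest sham library, and the alpha gene was lower by -0.17 ± 0.048 (SE, limma adjusted p = 0.0040). Within a library, the gap of Hsp90aa1 over Hsp90ab1 was 0.97 ± 0.21 (SD) over the 10 sham libraries and 0.11 ± 0.083 over the 11 HF-HI libraries. Gene length shifts such a gap by the same amount in both groups and drops out of the comparison. The gap narrowed by 0.86 (95% interval of the HF-HI minus sham difference -1.01 to -0.70), and no HF-HI library reached the lowest sham gap (two-sided permutation test, adjusted p = 4.67e-05 over 14 gene pairs compared in the same way). With the GC trend removed the change was -0.745. The 14 pairs were chosen with earlier results of these data known, which the adjustment does not take into account.

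Stip1, the adaptor that carries clients from HSP70 to HSP90, was among the 4 members with the largest rise. It lay at 8.87, 9.16 and 9.41 in sham and at 9.76, 9.87 and 10.06 in HF-HI. All 11 HF-HI libraries stood above all sham libraries, and the difference was 0.76 ± 0.060 (SE), or 1.70-fold (limma adjusted p = 6.9e-10). St13, the HSP70-interacting protein Hip, which steadies HSP70 in its client-bound state, lay at 10.82, 10.98 and 11.23 in sham and at 10.80, 10.93 and 11.25 in HF-HI. Its groups overlapped almost fully (difference -0.05 ± 0.056 SE, limma adjusted p = 0.45). The gap of St13 over Stip1 fell from 1.89 ± 0.25 (SD, n = 10) to 1.08 ± 0.14 (SD, n = 11), a change of -0.81 (95% interval -1.0 to -0.62, two-sided permutation test, adjusted p = 4.67e-05), again with no overlap.

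**Figure D2:**
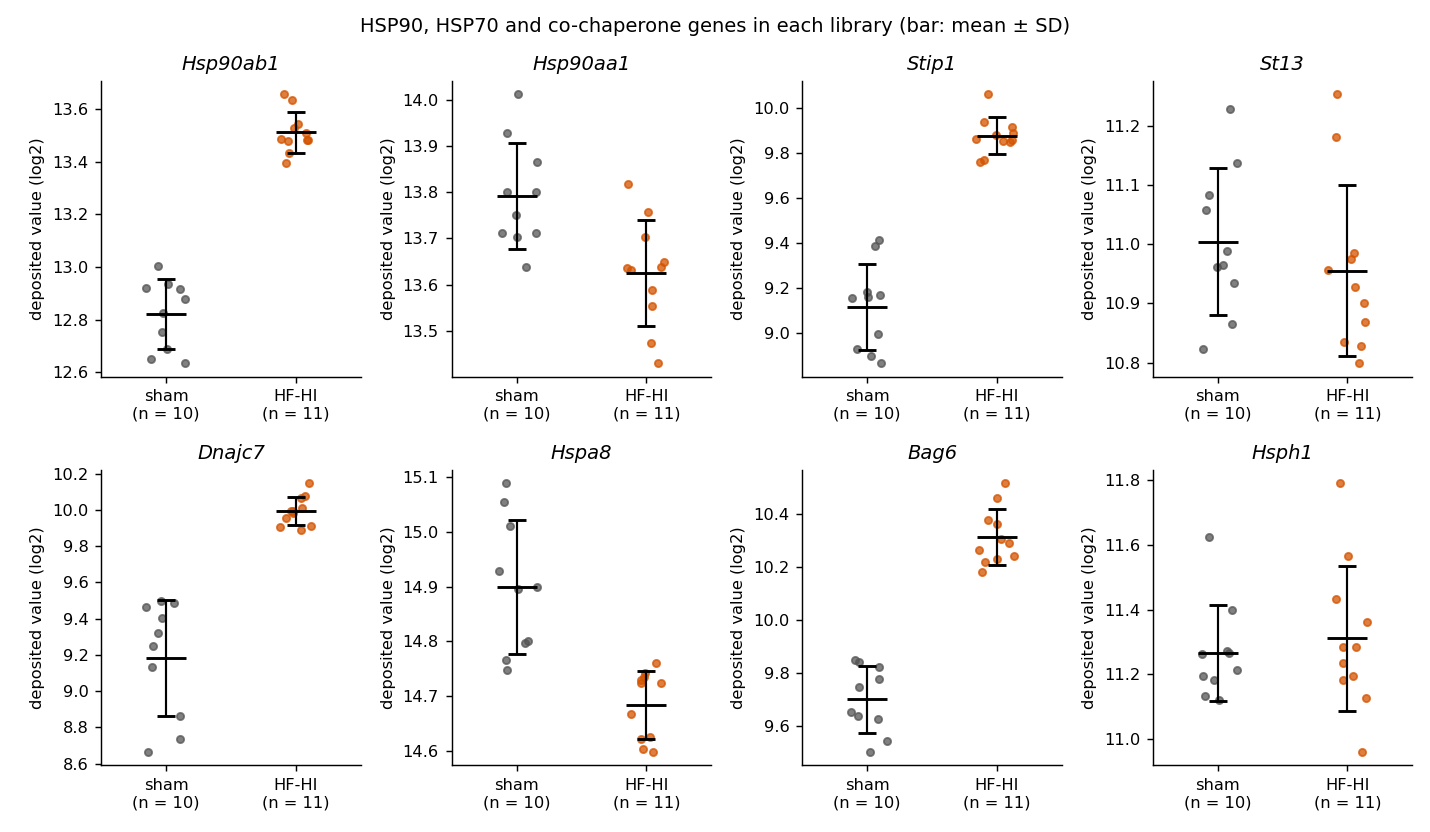
Deposited log2 value in each library (points) with the group mean ± SD (bars) for 8 cytosolic chaperone genes, 10 sham libraries against 11 HF-HI libraries; each panel has its own vertical axis. Hsp90ab1, Stip1, Dnajc7 and Bag6 have no overlap between groups and are higher in HF-HI, Hsp90aa1 and Hspa8 are lower with some overlap, and St13 and Hsph1 have overlapping groups.

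Of the 5 cytosolic HSP70 genes 3 were lower (60%), 1 was higher (20%) and 1 was not called, against 33.6% lower and 32.6% higher over all genes. Hspa8, the constitutive HSP70 (chr9:40800984-40810087, plus strand, GRCm38), lay at 14.75, 14.90 and 15.09 in sham and at 14.60, 14.72 and 14.76 in HF-HI. In 10 of 11 HF-HI libraries it was under the lowest sham library, and the difference was -0.21 ± 0.041 (SE, limma adjusted p = 9.1e-05). Part of its exonic bases is shared on the same strand with small nucleolar RNA genes (Snord14c, Snord14d and Snord14e), whose reads cannot be told apart from it there. Hspa4 and Hspa4l, HSP110-type relatives of HSP70 that act as nucleotide exchange factors, were lower by -0.23 and -0.28 (limma adjusted p = 3.2e-04 and 0.0068), and the call of Hspa4l was lost with the GC trend removed (-0.17, adjusted p = 0.085). Hsph1, the HSP110 form that is itself heat-inducible, was not called (0.04 ± 0.078 SE, limma adjusted p = 0.63) and ranged widely within both groups, from 11.12 to 11.62 in sham and from 10.96 to 11.79 in HF-HI. Hspa12a, a divergent HSP70 relative, was higher by 0.14 (limma adjusted p = 0.0021), a call lost with the GC trend removed (0.05, adjusted p = 0.18).

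Those HSP70 genes were also compared pair by pair within libraries. The gap of Hspa8 over Hspa12a fell from 3.51 ± 0.18 (SD, n = 10) to 3.16 ± 0.045 (SD, n = 11) with no overlap, a change of -0.35 (95% interval -0.48 to -0.22, two-sided permutation test, adjusted p = 4.67e-05). Hspa8 also fell relative to Hsph1 by -0.26 (95% interval -0.42 to -0.093, permutation adjusted p = 0.0030) and relative to the mitochondrial Hspa9 by -0.26 (95% interval -0.43 to -0.095, permutation adjusted p = 0.0014). Hspa4 and Hspa4l did not differ detectably in their change: the difference between them was 0.055 (95% interval -0.14 to 0.25, permutation adjusted p = 0.62).

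Of the 7 HSP70 co-chaperones outside the J-domain family, Stip1 and Bag6 were higher, 2 were lower and 3 were not called. The shares of 28.6% higher and 28.6% lower were under the 32.6% and 33.6% of all genes. Bag6, a large ubiquitin-like scaffold that handles newly made and mislocalized membrane proteins, lay at 9.50, 9.70 and 9.85 in sham and at 10.18, 10.29 and 10.51 in HF-HI. The groups did not overlap, and the difference was 0.61 ± 0.049 (SE), or 1.53-fold (limma adjusted p = 8.6e-10). Its exonic GC content is 56.5%, and with the GC trend removed the difference was 0.39 (adjusted p = 1.0e-08). Bag1, a nucleotide exchange factor that links HSP70 to the proteasome, was lower by -0.21 (limma adjusted p = 1.9e-04) with 8 of 11 HF-HI libraries below all sham libraries. Bag4 was lower by -0.11 (limma adjusted p = 0.0051), a call lost with the GC trend removed, and Bag5 was not called (0.012). Hspbp1, another exchange factor, was not called as deposited (-0.11, limma adjusted p = 0.14) and was lower once the GC trend was removed (-0.34, adjusted p = 3.5e-05).

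The cytosolic J-domain proteins, which pick the clients of HSP70, held the largest difference of all members. Of the 13, 3 were higher (23.1%), 4 lower (30.8%) and 6 not called, against 32.6% higher and 33.6% lower over all genes. Dnajc7, a J-domain protein with tetratricopeptide repeats that binds both HSP70 and HSP90 (chr11:100582818-100620168, minus strand, GRCm38), lay at 8.66, 9.29 and 9.50 in sham and at 9.89, 9.996 and 10.15 in HF-HI. Every HF-HI library was above every sham library, and the difference was 0.81 ± 0.091 (SE), or 1.76-fold (limma adjusted p = 9.8e-08). Exons of Dnajc7 overlap, on the opposite strand, those of Cnp, an oligodendrocyte gene, over 154 bases, and those of Nkiras2 over 287 bases; whether the counting used strand is not given in the sources used here, and Cnp itself differed by -0.066 and was not called. Dnajb5, a class B J-domain protein, lay at 8.93, 9.26 and 9.37 in sham and at 9.50, 9.72 and 9.87 in HF-HI, again with no overlap (0.48 ± 0.051 SE, limma adjusted p = 4.1e-08). Dnaja1, the main class A partner of Hspa8, lay at 11.01, 11.35 and 11.68 in sham and at 11.45, 11.58 and 11.74 in HF-HI. Its groups overlapped, with 3 HF-HI libraries above all sham libraries, and it was higher by 0.27 ± 0.067 (SE, limma adjusted p = 0.0013).

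Dnaja2, the sister gene of Dnaja1, was not called as deposited (0.019). Dnaja1 rose relative to Dnaja2 within libraries by 0.25 (95% interval 0.12 to 0.38, two-sided permutation test, adjusted p = 6.0e-04). Among the lower J-domain genes, the neuronal auxilin Dnajc6, which recruits Hspa8 to clathrin-coated vesicles, had no overlap between groups. It lay at 12.81, 12.88 and 13.00 in sham and at 12.62, 12.69 and 12.80 in HF-HI, a difference of -0.18 ± 0.030 (SE, limma adjusted p = 2.0e-05). Dnajc5, the cysteine string protein that works with Hspa8 on the presynaptic fusion machinery, was not called (-0.015 ± 0.049 SE, limma adjusted p = 0.80). The gap between Dnajc5 and Dnajc6 changed by 0.17 (95% interval 0.038 to 0.29, two-sided permutation test, adjusted p = 0.014). Dnajb6, which holds back aggregation of polyglutamine proteins, and Dnajc13, an endosomal J-domain protein, were lower by -0.18 and -0.11 (limma adjusted p = 0.0047 and 0.0018). Dnajb1, the classical HSP40 and a common readout of the heat shock response, was lower by -0.088 (limma adjusted p = 0.045), a call absent from 13 of the 21 leave-one-library-out fits (adjusted p 0.023 to 0.092). The other J-domain genes, Dnajb4, Dnajc8, Dnajc27 and Dnaja4, lay between -0.051 and 0.0043 and were not called. With the GC trend removed, Dnaja2 and Dnajb4 were higher (0.10 for each, adjusted p = 0.033 and 0.018), Dnajc27 and Dnaja4 were lower, and of the exonic bases of Dnaja4 44.1% overlap Wdr61 on the opposite strand.

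Most subunit genes of the CCT chaperonin were lower in HF-HI. CCT stacks a pair of rings, each built from 1 copy of each of its 8 subunits, so the 8 genes encode parts of a common machine. Of the 8 genes 7 were lower and none was higher, where 33.6% of all genes were lower and 32.6% higher. With the GC trend removed 6 were lower, where 34.5% of all genes were. In Cct2, Cct4, Cct5 and Cct6a every HF-HI library stood below every sham library, as in 4.76% of all genes. Cct5 lay at 10.27, 10.43 and 10.58 in sham and at 9.97, 10.10 and 10.23 in HF-HI, the largest fall of any member as deposited (-0.30 ± 0.039 SE, limma adjusted p = 9.0e-07). Cct2 lay at 10.32, 10.39 and 10.51 in sham and at 10.02, 10.15 and 10.24 in HF-HI (-0.26 ± 0.033 SE, limma adjusted p = 5.1e-07). Cct4 and Cct6a were lower by -0.24 and -0.22, Tcp1, which encodes the alpha subunit, by -0.19, and Cct3 by -0.16. Cct8 was lower by -0.11 (limma adjusted p = 0.018), a call lost with the GC trend removed (-0.047, adjusted p = 0.20). Cct7 was not called (-0.026 ± 0.044 SE, limma adjusted p = 0.62), and its sham libraries ran from 10.13 to 10.50 and its HF-HI libraries from 10.20 to 10.51.

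The mean of the 8 CCT genes per library lay at 10.22, 10.32 and 10.41 (lowest, median and highest) in sham and at 10.03, 10.12 and 10.20 in HF-HI. All 11 HF-HI libraries were below the lowest sham library, and the mean differed by -0.19. Exons of Cct6a share 102 bases with Snora15 on the same strand, and those of Tcp1 share 571 bases with Acat3 on the opposite strand. Pfdn5, the prefoldin subunit that the naming rule takes, was lower too, at 9.92, 10.15 and 10.33 in sham and at 9.68, 9.87 and 9.95 in HF-HI (-0.29 ± 0.047 SE, limma adjusted p = 1.7e-05), with 9 of 11 HF-HI libraries below all sham libraries. Of its exonic bases 11.8% overlap Myg1 on the same strand.

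**Figure D3:**
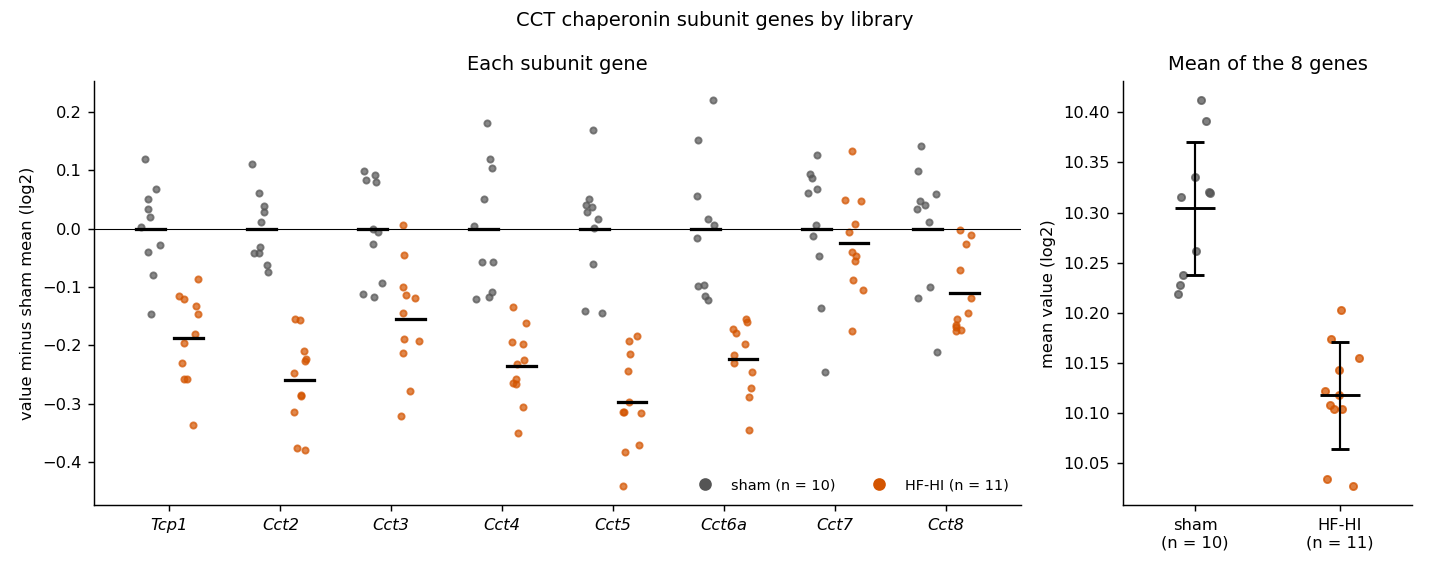
Left, log2 value of each CCT subunit gene in each library minus the sham mean of that gene (points), with group means as black lines; right, mean of the 8 genes per library with group mean ± SD. All 11 HF-HI libraries have a mean below that of every sham library, and Cct7 is the subunit that was not called.

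Cytosolic partners of these chaperones outside the naming rule were listed separately, and 25 of 34 were in the table: 9 higher, 8 lower and 8 not called, with a median of -0.026 (6 higher and 9 lower with the GC trend removed). The called genes with the largest rise were Ubqln4, a ubiquitin-like shuttle to the proteasome that works with Bag6, and Hsbp1, a small protein that binds the heat shock factor Hsf1. Ubqln4 lay at 8.76, 8.94 and 9.38 in sham and at 9.70, 9.94 and 10.09 in HF-HI, with no overlap (0.90, limma adjusted p = 7.1e-10). Hsbp1 was higher by 0.52 (limma adjusted p = 4.7e-04). Sgta, named here after its values were seen because it hands membrane proteins to Bag6, was higher by 0.47 with no overlap (limma adjusted p = 1.0e-08), 0.21 with the GC trend removed. The relatives of Ubqln4 and Sgta on the same list, Ubqln1, Ubqln2 and Sgtb, were not called (-0.054, 0.11 and -0.12). The called genes with the largest fall were Vbp1, a further prefoldin subunit (-0.30, limma adjusted p = 1.7e-05), and Tbce, a cofactor that takes tubulin from CCT and assembles the tubulin dimer (-0.28, limma adjusted p = 9.5e-07, no overlap). Its relatives Tbcb and Tbcd, named after their values were seen, were lower by -0.24 and -0.15. Over all genes 32.6% were higher and 33.6% lower (26.7% and 34.5% with the GC trend removed).

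In the ER, 4 of the 17 members were higher (23.5%), 6 lower (35.3%) and 7 not called, with a median of -0.065. Over all genes 32.6% were higher and 33.6% lower, so the share of lower ER members was near the background. The 2 HSP70 genes of the ER that the naming rule takes, Hspa5 and Hspa13, were lower. Hspa5, which encodes BiP, the abundant HSP70 that holds the ER stress sensors inactive, lay at 10.57, 10.84 and 11.06 in sham and at 10.38, 10.63 and 10.96 in HF-HI. The groups overlapped, with 5 of 11 HF-HI libraries below all sham libraries, and the difference was -0.20 ± 0.062 (SE, limma adjusted p = 0.0076). Hspa13 was lower by -0.25 (limma adjusted p = 4.3e-06). Hyou1, an ER relative of HSP70 outside the naming rule, was higher by 0.17 (limma adjusted p = 0.0049). That call was lost with the GC trend removed (0.051, adjusted p = 0.28). Hsp90b1, the ER HSP90, lay at 11.43, 11.52 and 11.74 in sham and at 11.56, 11.64 and 11.74 in HF-HI. Its groups overlapped, and its call of higher (0.095 ± 0.035 SE, limma adjusted p = 0.020) was lost under quantile normalization (adjusted p = 0.12) and with each library centred on its median (adjusted p = 0.31). Within libraries, Hsp90b1 rose relative to Hspa5 by 0.29 (95% interval 0.17 to 0.41, two-sided permutation test, adjusted p = 4.4e-04). The change of Hspa5 and that of its cytosolic relative Hspa8 differed by -0.018 for Hspa8 minus Hspa5 (95% interval -0.15 to 0.12, permutation adjusted p = 0.77).

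The lectin chaperones, which hold glycoproteins in the ER until they are folded, moved in opposite directions. Calr lay at 10.58, 10.81 and 10.96 in sham and at 10.90, 11 and 11.10 in HF-HI, with 8 of 11 HF-HI libraries above all sham libraries (0.19 ± 0.037 SE, limma adjusted p = 1.1e-04). Canx lay at 12.58, 12.67 and 12.87 in sham and at 12.50, 12.54 and 12.83 in HF-HI, with 7 of 11 HF-HI libraries below all sham libraries (-0.13 ± 0.042 SE, limma adjusted p = 0.011), a call lost with the GC trend removed (-0.03, adjusted p = 0.38). Calr rose relative to Canx by 0.31 (95% interval 0.21 to 0.42, two-sided permutation test, adjusted p = 7.0e-05), and by 0.17 with the GC trend removed (adjusted p = 1.2e-04). Of the disulfide isomerases, Pdia3, the partner of both lectins, and Pdia6 were not called (-0.072 and -0.0059), and Pdia4 was lower by -0.12 (limma adjusted p = 0.036), a call absent from 7 of the 21 leave-one-library-out fits. Pdia3 and Pdia6 differed in their change by -0.066 (95% interval -0.22 to 0.084, permutation adjusted p = 0.40).

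Among the 9 J-domain members placed in the ER, 2 were higher, 2 lower and 5 not called. The shares of 22.2% higher and 22.2% lower were under the 32.6% and 33.6% of all genes. Dnajc10, a J-domain disulfide reductase that speeds ER-associated degradation, lay at 9.997, 10.15 and 10.25 in sham and at 9.77, 9.86 and 9.99 in HF-HI. All HF-HI libraries were below all sham libraries, and the difference was -0.28 ± 0.036 (SE, limma adjusted p = 8.1e-07). Dnajc3, which binds BiP and also inhibits the stress kinase PERK, was lower by -0.16 (limma adjusted p = 0.0034). Dnajc18, a membrane J-domain protein, lay at 9.73, 9.93 and 10.14 in sham and at 10.19, 10.27 and 10.43 in HF-HI, with no overlap (0.35 ± 0.048 SE, limma adjusted p = 1.7e-06). Dnajc16 was higher by 0.20 (limma adjusted p = 0.0032), a call lost with the GC trend removed (0.097, adjusted p = 0.10). Dnajb9 and Dnajb11, both co-chaperones of BiP, together with Dnajb14, Dnajc1 and Dnajc14, lay between -0.071 and 0.037 and were not called; Dnajb9 and Dnajb14 were higher once the GC trend was removed (0.15 and 0.074, adjusted p = 0.019 and 0.040).

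**Figure D4:**
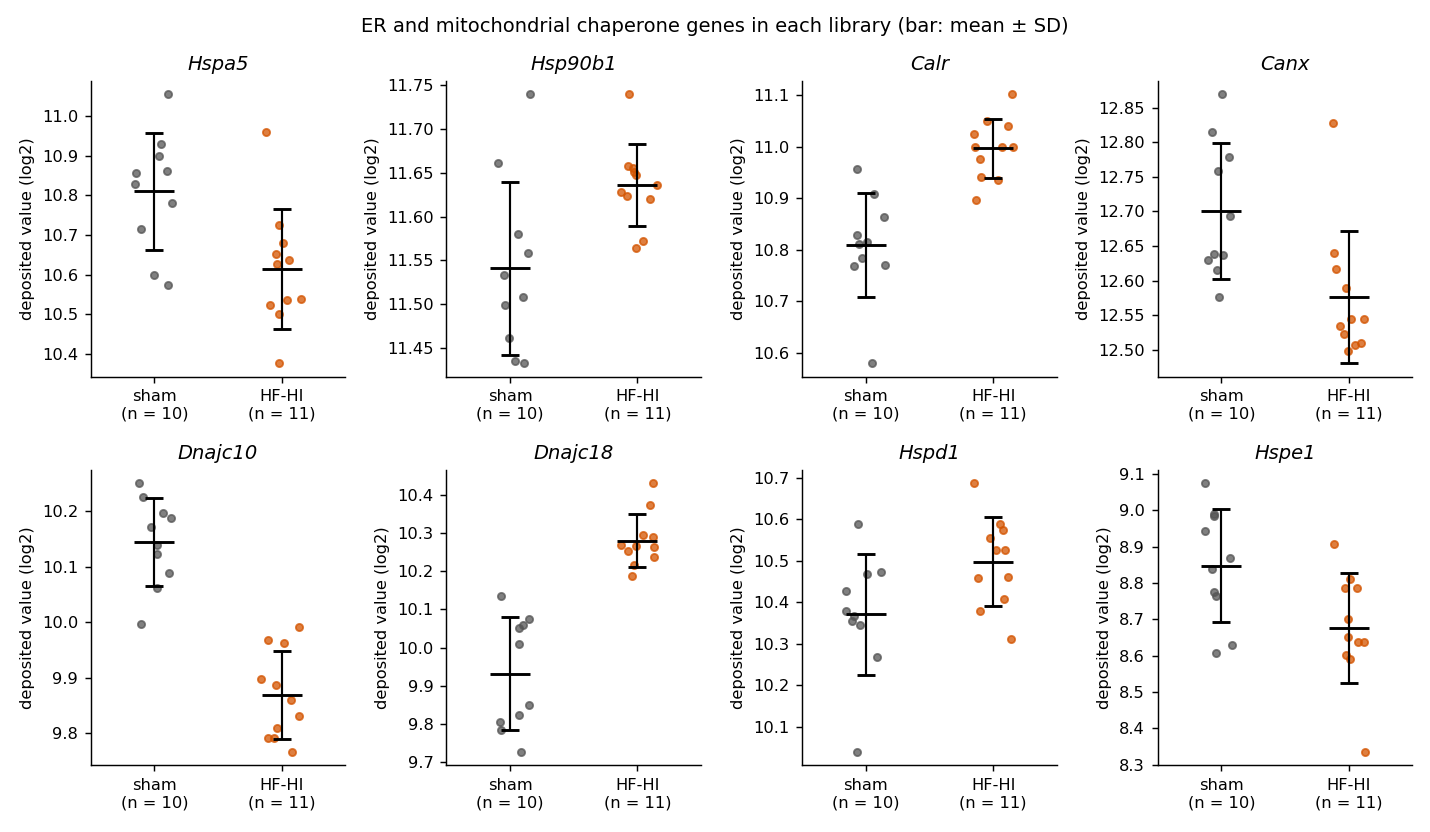
Deposited log2 value in each library (points) with the group mean ± SD (bars) for 6 ER and 2 mitochondrial chaperone genes, 10 sham libraries against 11 HF-HI libraries; each panel has its own vertical axis. Calr and Canx, and Hspd1 and Hspe1, move in opposite directions, and of these 8 genes Dnajc10 and Dnajc18 alone have no overlap between groups.

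Many ER chaperone promoters carry the ER stress response element, read by ATF6 with the factor NF-Y when unfolded proteins build up. It was searched as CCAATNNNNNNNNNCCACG on both strands in the RefSeq promoters of the GRCm38.p6 assembly, each 300 bases long, of which 250 lie before the gene start. A promoter was found for 47 of the 58 members, 15 of the 17 ER members among them, and these 47 had 64 promoters. The element was held by 6 members, all of the ER class, and by 0.119% of all 32851 promoters. That share counts promoters, not genes, and a gene can have more than 1 promoter. These 6 are printed because they share the element and did not share a direction: Calr and Hsp90b1 were higher, Canx, Dnajc3 and Hspa5 lower, and Pdia6 was not called. The capitals mark the fixed letters of the element, reversed where it lies on the opposite strand, and each line is written 5′ to 3′ on the strand of its gene.
Hspa5, chr2:34772020-34772048, plus strand: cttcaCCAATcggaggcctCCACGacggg
Calr, chr8:84847060-84847108, minus strand: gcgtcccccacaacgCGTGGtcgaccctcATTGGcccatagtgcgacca
Hsp90b1, chr10:86705623-86705671, minus strand: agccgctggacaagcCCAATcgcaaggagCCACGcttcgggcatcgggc
Canx, chr11:50325785-50325833, minus strand: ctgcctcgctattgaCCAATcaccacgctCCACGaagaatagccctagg
Pdia6, chr12:17266476-17266524, plus strand: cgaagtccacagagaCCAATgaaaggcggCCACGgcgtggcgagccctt
Dnajc3, chr14:118937812-118937860, plus strand: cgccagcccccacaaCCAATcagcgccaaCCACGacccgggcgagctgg
The element begins between 65 bases (Hspa5) and 212 bases (Hsp90b1, which has a further match) before the RefSeq start. That start can differ from the first base of the GENCODE gene, and the Hspa5 window lies within an annotated exon. A match shows that the letters are there, not that the site was bound in this cortex.

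Genes of ER folding and of the unfolded protein response outside the naming rule gave 8 higher, 6 lower and 8 not called of 22 measured (38 listed), with a median of -0.023. With the GC trend removed, 4 were higher and 6 lower. The shares over all genes were 32.6% higher and 33.6% lower, and 26.7% and 34.5% with that trend removed. Atf4, the transcription factor translated under the integrated stress response, was higher by 0.34 (limma adjusted p = 1.5e-04), a call lost with the GC trend removed (0.13, adjusted p = 0.11). Creld1, a cysteine-rich membrane protein of the ER, was higher by 0.33 with no overlap between groups (limma adjusted p = 2.1e-06). Erp29, an ER folding assistant, was lower by -0.23 with no overlap (limma adjusted p = 7.3e-06), and Derl2, a derlin of ER-associated degradation, was lower by -0.20 (limma adjusted p = 7.5e-05).

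The mitochondrial class was small: of 5 members 1 was higher, 2 were lower and 2 were not called (32.6% higher and 33.6% lower over all genes). Hspd1 (HSP60) and Hspe1 (HSP10), the barrel and the lid of the same chaperonin, moved in opposite directions. Hspd1 lay at 10.04, 10.37 and 10.59 in sham and at 10.31, 10.53 and 10.69 in HF-HI. The groups overlapped, and the call of higher (0.13 ± 0.053 SE, limma adjusted p = 0.039) was absent from 11 of the 21 leave-one-library-out fits and with the GC trend removed (0.089, adjusted p = 0.16). Hspe1 lay at 8.61, 8.85 and 9.07 in sham and at 8.34, 8.65 and 8.91 in HF-HI. Its groups overlapped too, and it was lower by -0.17 ± 0.064 (SE, limma adjusted p = 0.021). The gap of Hspd1 over Hspe1 widened from 1.52 ± 0.22 (SD, n = 10) to 1.82 ± 0.088 (SD, n = 11), a change of 0.30 (95% interval 0.13 to 0.46, two-sided permutation test, adjusted p = 1.1e-04).

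The genes Hspd1 (chr1:55077835-55088243, minus strand) and Hspe1 (chr1:55088132-55091307, plus strand, GRCm38) lie head to head, and their annotated exons share 112 bases on opposite strands. Their shared promoter holds overlapping matches to the heat shock element of 3 inverted units, the site bound by Hsf1, searched as GAANNTTCNNGAA on both strands. It was found in 0.603% of all promoters and in those of 4 of the 47 members with a promoter: Hspd1, Hspe1, Dnajb6 and Hsph1. The Hspd1 and Hspe1 lines below are windows offset by 5 bases in the same stretch of DNA, each read on the strand of its gene, and their capitals mark different, overlapping matches. They are shown because this stretch lies before the RefSeq starts of both genes, which moved apart. By the GENCODE coordinates it lies within Hspd1. The Dnajb6 line is shown beside them as an element in a gene that was lower. Capitals mark the fixed letters of the element.
Hspd1, chr1:55088054-55088076, minus strand: ttccgGAAggTTCtaGAAcggac
Hspe1, chr1:55088059-55088081, plus strand: ttctaGAAccTTCcgGAAggccc
Dnajb6, chr5:29735847-29735869, plus strand: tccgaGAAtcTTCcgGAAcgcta
These windows lie within annotated exons too. In Hsph1 the match lies after the start. Of the 4 genes 1 was higher, 2 were lower and 1 was not called (32.6% higher and 33.6% lower over all genes).

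Hspa9, the mitochondrial HSP70 that pulls proteins through the inner membrane, was not called (0.047 ± 0.066 SE, limma adjusted p = 0.54), and Hspd1 and Hspa9 differed in their change by 0.079 (95% interval -0.007 to 0.17, two-sided permutation test, adjusted p = 0.087). Dnaja3, its J-domain partner, was lower by -0.088 (limma adjusted p = 0.026), with adjusted p reaching 0.052 when sham library 3, 6 or 7 was left out, and Dnajc11 was not called (0.063). Of 9 measured mitochondrial proteostasis genes outside the rule (18 listed), 3 were higher and 4 lower, against 32.6% and 33.6% of all genes. With the GC trend removed 1 was higher and 4 lower, against 26.7% and 34.5% of all genes. Afg3l2, a subunit of the inner membrane m-AAA protease, and Phb2, a prohibitin, were higher by 0.22 and 0.17 (limma adjusted p = 3.4e-04 and 0.0015), and the call of Phb2 was lost with the GC trend removed (0.044, adjusted p = 0.40). Yme1l1, the i-AAA protease, was lower by -0.27 with no overlap between groups (limma adjusted p = 4.2e-07), and Trap1, the mitochondrial HSP90, was lower by -0.23 (limma adjusted p = 9.1e-04).

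Across the compartments, 10 of the 14 gene pairs compared within libraries had a change in their gap past an adjusted p of 0.05, and in 3 of them the groups did not overlap. These 3 were Hsp90aa1 with Hsp90ab1, St13 with Stip1, and Hspa8 with Hspa12a, all cytosolic. The pairs were chosen with earlier results known and no share was computed for other pairs of genes, of which many could pass where 66.3% of all genes were called. In the ER the gap of Calr and Canx changed by 0.31 and that of Hsp90b1 and Hspa5 by 0.29, and with the GC trend removed by 0.17 and 0.33, so their order depends on that step. In mitochondria the gap of Hspd1 and Hspe1 changed by 0.30.

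**Figure D5:**
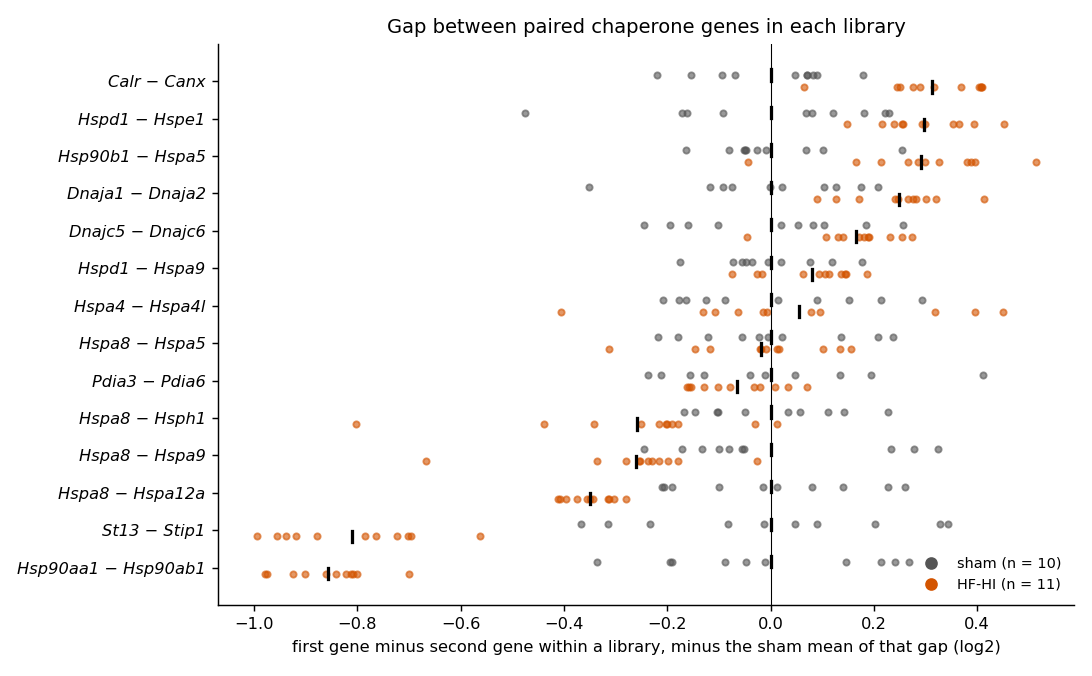
Gap between paired chaperone genes in each library (points), in log2 units on the horizontal axis, as first gene minus second gene with the sham mean of that gap subtracted; black lines are group means for 10 sham and 11 HF-HI libraries. The gaps of Hsp90aa1 with Hsp90ab1 and of St13 with Stip1 lie furthest from 0 in HF-HI (-0.86 and -0.81).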

How the data were processed

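The authors made stranded total RNA libraries from cortex after removal of ribosomal RNA, mapped them to mm10 (STAR), estimated expression per transcript (eXpress) and scaled it with DESeq2. The values they deposited are variance-stabilized log2 values for 5544 genes (4.59 to 17.7) in 21 libraries. Counts were not used here and depth is known only in relative terms, so no counting interval is given and the number of libraries limits the precision. The strand setting of the counting is not given in the sources used here.

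Gene symbols, exonic GC content, exons and coordinates came from GENCODE M21 (GRCm38), and promoters from RefSeq (GRCm38.p6). Differences between the groups were fitted per gene with limma 3.58.1 (R 4.3.3, moderated variance with a mean trend, Benjamini-Hochberg adjustment over all genes, adjusted p under 0.05), after a test on simulated data. The GC trend was taken out of each library with a lowess curve (span 0.3). Paired genes were compared by their gap in each library with a two-sided permutation test (100000 resamples, smallest p 1e-05). The limma p-values set a group difference against the spread between libraries, and the permutation p-values set it against shuffled group labels. Other fits used a limit of 0.1, a minimum difference of 0.25, no variance trend, libraries centred on their medians, quantile normalization, omission of the share of 0.25 of genes lowest in mean value, relative depth as a covariate, the replicate number as a block, and omission of 1 library at a time.

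The members, their classes, the partner lists, the marker lists and the gene pairs were chosen with earlier results of these data known. The text names a fixed core of chaperone genes, the genes of the pairs, the 5 most higher and 5 most lower called members of each class, and the 2 called genes with the largest difference in each direction of each partner list; the other members are named to account for each family.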

Additional observations from a re-analysis of the deposited data

Results flagged for a closer look

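Among 41 sets of values over the 10 sham libraries (named members and class means), 1 had a library set apart from the rest by Dixon's test: Calr in sham library 4 was at 10.6, where the next lowest sham library was at 10.8, a gap of 0.502 of the whole range. Chance flags about 1 in 20 such sets. The call of Calr was kept in every fit that left out 1 library. The HF-HI group, with 11 libraries, was not tested in this way.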

How the results depend on the processing

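The 12 higher and 26 lower members stayed within 11 to 12 and 23 to 27 when each library was left out in turn, cytosolic members within 7 higher and 17 to 19 lower, and ER members within 4 higher and 5 to 7 lower. Mitochondrial members ranged from 0 to 1 higher and from 1 to 2 lower. With a minimum difference of 0.25, 7 members were higher and 6 lower (4 cytosolic lower, 1 ER higher and 2 ER lower, 0 mitochondrial in either direction), and over all genes 987 were higher and 446 lower. The mitochondrial count of higher members was also 0 with medians centred, with quantile normalization, with the GC trend removed and with that plus the replicate block. The mitochondrial count of lower members was 1 with low-valued genes omitted and 1 with the replicate block. The replicate block, which leaves out HF-HI library 11 because its number has no sham partner, gave 11 higher and 23 lower members, without the calls of Hsp90b1 (adjusted p = 0.055), Dnajb1, Pdia4 and Dnaja3; with the GC trend removed as well, ER members lower fell to 3. Same-numbered libraries did not deviate together (correlations of -0.31 to 0.36 over 10 pairs, 4 above 0.1), and no sham library was closest to the HF-HI library of its own number, so the numbers were not taken as pairs.

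Dnajb1 lost its call without any of sham 3, 5, 6, 8 and 9 and HF-HI 1, 2, 3, 4, 5, 6, 8 and 9 (adjusted p 0.023 to 0.092 over all 21 fits), Hspd1 without sham 2, 3, 5, 8 or 10 or HF-HI 1, 6, 7, 8, 9 or 11 (0.013 to 0.082), Pdia4 without sham 1 or 6 or HF-HI 3, 4, 6, 7 or 8 (0.0087 to 0.079), and Dnaja3 without sham 3, 6 or 7 (0.0068 to 0.052). Hspbp1 was called lower without sham 10 (0.0091) and Dnajb11 without HF-HI 9 (0.050). All values are limma adjusted p.

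Uncalled members changed sign. With medians centred, which shifts all differences by 0.052, Dnaja2 was at -0.033, Hspa9 at -0.0045 and Hsph1 at -0.0076. Pdia6 was at 0.0058 with the replicate block and 0.0051 with the block and the GC trend removed. St13 was at 0.043 with the GC trend removed, 0.026 with the block as well and 0.016 with depth as a covariate. Without 1 library, Dnaja2 ran from -0.0071 to 0.045, Dnajc5 from -0.036 to 0.0084, Hsph1 from -0.0037 to 0.084 and Pdia6 from -0.039 to 0.019. Of the pairs, Hspa4 minus Hspa4l was -0.049 and Hspd1 minus Hspa9 -0.015 with the GC trend removed, and Hspa8 minus Hspa5 ran from -0.043 to 0.011 without 1 library. The causes were not tested. Depth is known only relative to the other libraries.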
